A study of Mus musculus with 12 samples.

Results

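The 8 genes examined here encode proteins tied to contact of the oocyte with the granulosa cells around it, or of granulosa cells with each other. They are the cadherins Cdh1 and Cdh2, their cytoplasmic partner Ctnnb1, the gap junction proteins Gja4 and Gja1, the actin regulators Daam1 and Myo10 of the transzonal projections, and the receptor Notch2. They were listed by name rather than by a rule on their values, though with earlier results of these data known. All 8 were among the 11385 genes of the count table. Germinal-vesicle oocytes, which rest in meiotic prophase, came from Mfn1-/-, Mfn2-/-, Mfn1&2-/- and WT mice. All 4 groups were labelled C57BL/6J, were 21 to 23 days old and had received no hormone priming. Each group had 3 pools of 50 oocytes, stripped of cumulus cells by pipetting, and each pool gave 1 library of total RNA. The labels name neither a Cre driver nor the exons removed, so whether the surrounding follicle cells also lacked mitofusins is not stated in them. Nor do they say if each pool had its own animals, so p-values measure the spread between pools, which may be technical.

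Mitofusin 1 and mitofusin 2, encoded by Mfn1 and Mfn2, sit in the outer membrane of mitochondria and fuse neighbouring mitochondria with each other. Granulosa cells reach the oocyte by thin actin-filled arms, the transzonal projections, which cross the zona pellucida and end on the oocyte surface. There, cadherins hold the membranes together through β-catenin (Ctnnb1), and connexin channels pass small molecules from granulosa cells to the oocyte. In the mouse follicle, E-cadherin (Cdh1) and connexin 37 (Gja4) are known as products of the oocyte, and N-cadherin (Cdh2) and connexin 43 (Gja1) as products mainly of granulosa cells. The formin Daam1 and the unconventional myosin Myo10 are known for building projections from the granulosa side, and Notch2 is the granulosa-cell receptor for Jag1 on the oocyte.

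Libraries held 11575357 to 16024893 counts. Levels are CPM (library-scaled counts) scaled by TMM, and values after ± are SD over the 3 pools of a group for CPM and approximate standard errors for log2 fold changes. A gene was called where edgeR's quasi-likelihood test gave a BH-adjusted p below 0.05 over all genes. The knocked-out genes followed the labels: Mfn1 stood at 18.1 ± 0.696 CPM in Mfn1-/- and 20.1 ± 5.87 CPM in Mfn1&2-/- pools, against 279.7 ± 16.4 CPM in WT, and Mfn2 at 11.2 ± 2.19 CPM in Mfn2-/- and 10.8 ± 1.31 CPM in Mfn1&2-/-, against 76.3 ± 9.75 CPM in WT. All 12 oocyte markers were in the table, and their summed level ran from 11548 to 16660 CPM. WT replicate 3 stood apart in the sum of granulosa markers. The summed level of the 10 granulosa markers in the table was 160.3 to 181 CPM in Mfn1-/-, 153 to 177 CPM in Mfn2-/-, 148 to 155 CPM in Mfn1&2-/-, and 187, 219 and 523 CPM in the WT pools. In WT replicate 3, 7 of these 10 markers had their highest level of all libraries. Fshr, Kitl and Gata4 did not, and Gata4 was at 29.5 CPM there, against a mean of 41.3 CPM in the other libraries. The defining markers Foxl2, Amh, Amhr2, Wt1 and Nr5a1 were not among the genes of the table. Inha, Inhba, Inhbb and Hsd17b1 of these 10 were called lower in Mfn2-/- and Inha and Kitl in Mfn1&2-/-. Without WT replicate 3, 0 and 1 were called, beside 6.41% and 3.00% of all genes. The median log2 fold changes of the 10 markers against WT were then still below 0. They were -0.40 in Mfn1-/-, -0.71 in Mfn2-/- and -0.89 in Mfn1&2-/-, beside -0.004, 0.017 and 0.009 for all genes. Nr5a2, Gata4 and Cyp19a1 had the highest means of the 10 in the other libraries (75.8, 41.3 and 23.6 CPM), so the sum mainly follows these 3. Of the other lists, the table held 1 of 6 theca markers, Hsd3b1, which was lower in Mfn2-/- and Mfn1&2-/- than in WT but not without WT replicate 3. It held 4 of 8 endothelium and blood markers, of which Tie1 was lower in Mfn2-/- and Mfn1&2-/- and Pecam1 higher in Mfn1&2-/-.

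Of the members that differed between Mfn2-/- and WT, promoter windows from RefSeq are given for Notch2, Daam1 and Gja1. None is given for Cdh1 or Cdh2. The windows of 250 bases upstream of the start are shown (RefSeq, GRCm38.p6, each on the plus strand). For Daam1 it is that of the start at the 5′ end of the gene. Whether CpG content goes with the direction of change was not tested. CpG pairs are in capitals.
Notch2, chr3:98013288-98013537: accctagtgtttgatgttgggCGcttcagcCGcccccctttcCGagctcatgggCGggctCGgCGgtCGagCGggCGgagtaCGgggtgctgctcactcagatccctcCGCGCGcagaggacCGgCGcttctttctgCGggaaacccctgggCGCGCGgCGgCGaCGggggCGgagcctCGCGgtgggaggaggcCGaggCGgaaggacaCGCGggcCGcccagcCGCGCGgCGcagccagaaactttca
Daam1, upstream of 2 listed starts, chr12:71830818-71831067: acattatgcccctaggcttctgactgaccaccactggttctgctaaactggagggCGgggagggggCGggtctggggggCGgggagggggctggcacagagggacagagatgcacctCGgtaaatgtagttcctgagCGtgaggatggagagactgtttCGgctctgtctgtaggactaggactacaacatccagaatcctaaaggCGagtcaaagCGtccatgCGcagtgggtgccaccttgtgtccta
Gja1, chr10:56377050-56377299: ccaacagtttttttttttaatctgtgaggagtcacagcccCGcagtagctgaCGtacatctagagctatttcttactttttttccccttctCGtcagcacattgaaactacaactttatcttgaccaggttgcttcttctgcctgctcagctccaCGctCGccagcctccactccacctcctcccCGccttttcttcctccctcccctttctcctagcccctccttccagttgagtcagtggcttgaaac
The Notch2 window held 34 CpG pairs and 72.0% G and C, the upstream Daam1 window 9 and 58.0%, the other Daam1 window (chr12:71889293-71889542) 4 and 52.8%, and the Gja1 window 6 and 50.0%, against medians of 6 pairs and 52.4% over 32851 promoter windows of the same length. Of the members not called in Mfn2-/-, Ctnnb1 had windows with 35 and 43 pairs, Myo10 windows with 17 and 4, and Gja4 a window with 9. Each window was searched on both strands for TGGGAA (the core bound by RBPJ), CAGGTG (the E-box bound by SNAI factors) and TAATTG (a NOBOX element). None of the windows of Notch2, Daam1, Gja1, Gja4, Ctnnb1 and Myo10 held any of them, while 21.6% of all promoter windows held TGGGAA, 17.2% CAGGTG and 7.17% TAATTG.

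Loss of Mfn2 alone went with differences in 5 of the 8 genes. In Mfn2-/- pools, Notch2 was higher and Cdh1, Cdh2, Gja1 and Daam1 were lower than in WT, whereas Ctnnb1, Gja4 and Myo10 were not called. Of all genes tested, 11.4% were called in that comparison, 4.52% higher and 6.87% lower. The same 5 genes were those whose Mfn2-/- and WT pools did not overlap, as was the case for 32% of all genes. The median log2 fold change of the members was -0.39, beside 0.01 for all genes. No member was called in Mfn1-/- against WT, where 0.228% of all genes were called: 3 members had an unadjusted p below 0.05, DESeq2 called 1 and limma-voom none. The median was -0.11, beside -0.01 for all genes, and Cdh1 and Cdh2 did not overlap with WT (18.1% of all genes). No member was called in Mfn1&2-/- against WT either, where 4.21% of all genes were called, though 5 members had an unadjusted p below 0.05, DESeq2 called 2 and limma-voom 1. The median was -0.30, beside 0.00 for all genes, and Cdh1, Ctnnb1 and Notch2 did not overlap with WT (22.1% of all genes). These 3 comparisons share the WT pools.

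**Figure D1:**
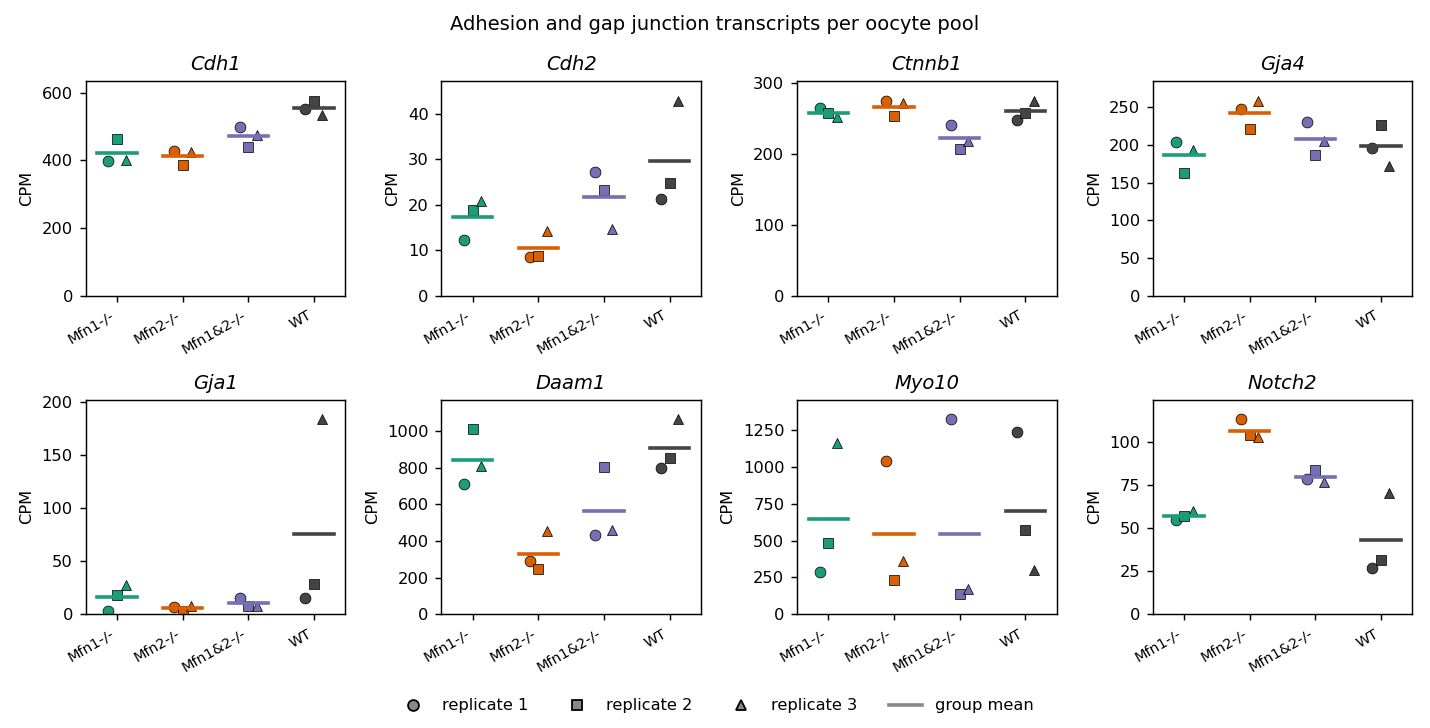
Level of each member in every pool (y axes, TMM-scaled CPM from 0) for Mfn1-/-, Mfn2-/-, Mfn1&2-/- and WT oocytes; points are pools, shaped by replicate number, and lines are group means. Cdh1 lies lower in every mutant pool than in WT, Notch2 is highest in Mfn2-/-, WT replicate 3 stands far above the rest for Gja1, and Myo10 has 1 pool at 1040.4 CPM or more in each group.

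Cdh1, the cadherin of the oocyte membrane (chromosome 8, 106603351 to 106670246, plus strand; positions are GRCm38 spans from GENCODE vM21), was lower in Mfn2-/- oocytes than in WT. Its level was 398, 463 and 402 CPM in the Mfn1-/- pools, 427, 386 and 426 CPM in Mfn2-/-, 500.0, 439.9 and 477 CPM in Mfn1&2-/-, and 552, 577 and 534 CPM in WT. All 9 mutant pools lay below all 3 WT pools, which held for 1.26% of all genes in that direction, and Cdh1 was the only such member. The log2 fold change against WT was -0.42 ± 0.09 in Mfn2-/- (74.5% of WT, edgeR adjusted p = 0.00633). This call held in all 8 other settings and without each library in turn. The setting without a filter repeated the main fit, because the filter removed no gene. In Mfn1-/- it was -0.40 ± 0.09 (76.0% of WT, edgeR adjusted p = 0.0779), a value that only DESeq2 called. Oocytes without either mitofusin stood on average between the single mutants and WT, at -0.23 ± 0.09 (85.2% of WT, edgeR adjusted p = 0.156). The spread of Cdh1 between pools of a group was 0.09 on the log2 scale, and 4.27% of all genes had a smaller one. Among the 923 genes within 2-fold of its mean level, 20.2% did.

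Cdh2, the cadherin that partners it from the granulosa side (chromosome 18, 16588877 to 16809246, minus strand), was far less abundant and was also lower in Mfn2-/-. The pools held 12.3, 18.8 and 20.8 CPM in Mfn1-/-, 8.59, 8.80 and 14.1 CPM in Mfn2-/-, 27.2, 23.1 and 14.6 CPM in Mfn1&2-/-, and 21.2, 24.7 and 42.9 CPM in WT. The Mfn2-/- pools were below every WT pool, and the highest WT value came from replicate 3, the pool with the highest granulosa marker sum. The Mfn2-/- log2 fold change was -1.49 ± 0.31 (35.5% of WT), called by edgeR with an adjusted p of 0.00689, and without WT replicate 3 it was -1.13 ± 0.30 (adjusted p = 0.0404). It was -0.78 ± 0.31 in Mfn1-/- (edgeR adjusted p = 0.305) and -0.45 ± 0.30 in Mfn1&2-/- (adjusted p = 0.474). In these pools, fewer cells of a type and less RNA per cell cannot be told apart, and the part of granulosa-cell RNA in the Cdh2 difference was not tested.

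Ctnnb1, which encodes β-catenin, the link from cadherins to the cytoskeleton (chromosome 9, 120929216 to 120960507, plus strand), varied least of the 8 genes. Pools held 265, 257 and 251 CPM in Mfn1-/-, 275, 253 and 271 CPM in Mfn2-/-, 239.9, 207 and 217 CPM in Mfn1&2-/-, and 247, 258 and 275 CPM in WT. Single mutants overlapped with WT, while all 3 Mfn1&2-/- pools lay just below the lowest WT pool. The log2 fold changes were -0.01 ± 0.08, 0.04 ± 0.08 and -0.23 ± 0.08 in Mfn1-/-, Mfn2-/- and Mfn1&2-/- (edgeR adjusted p = 0.967, 0.837 and 0.140), so none was called. Approximate 95% intervals were -0.18 to 0.15 in Mfn1-/-, -0.13 to 0.20 in Mfn2-/- and -0.40 to -0.06 in Mfn1&2-/-. Ulk4 overlaps Ctnnb1 on the opposite strand, with group means of 12.7 to 19.6 CPM. The sources used here do not give the strand setting of the counting, so reads of the pair may not be told apart.

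Gja4, connexin 37, the gap junction protein that oocytes make (chromosome 4, 127311421 to 127314039, minus strand, on the chromosome of Mfn2), was not called against WT in any group. The Mfn1-/- pools held 203, 163 and 194 CPM, the Mfn2-/- pools 247, 222 and 259 CPM, the Mfn1&2-/- pools 230.3, 187 and 205 CPM and the WT pools 197, 226 and 173 CPM. Mfn2-/- pools tended to the top of the range but overlapped with WT. The log2 fold change was 0.29 ± 0.12 in Mfn2-/- (122% of WT, edgeR adjusted p = 0.128), -0.09 ± 0.12 in Mfn1-/- and 0.06 ± 0.12 in Mfn1&2-/- (adjusted p = 0.798 and 0.838). The 95% intervals were 0.06 to 0.52, -0.32 to 0.14 and -0.17 to 0.30.

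Gja1, connexin 43, which couples granulosa cells to each other (chromosome 10, 56377330 to 56402513, plus strand), was called lower in Mfn2-/- than in WT, but the size rested on a single WT pool. Levels were 2.71, 17.5 and 27.3 CPM in Mfn1-/-, 6.46, 2.91 and 7.56 CPM in Mfn2-/-, 15.6, 7.63 and 7.80 CPM in Mfn1&2-/-, and 15.4, 28.5 and 184 CPM in WT. The 184 CPM of WT replicate 3, where the granulosa marker sum peaked, was 14.5 times the mean of the other 11 libraries. The Mfn1-/- pools alone spanned 10.1-fold. The log2 fold change in Mfn2-/- was -3.73 ± 0.84 (7.44% of WT, edgeR adjusted p = 0.0103). Without WT replicate 3 it was -1.95 ± 0.64 (25.7% of WT) and no longer called (adjusted p = 0.0857), nor was it by limma-voom (-2.97, adjusted p = 0.0973). All 3 Mfn2-/- pools were still below WT replicates 1 and 2. In Mfn1&2-/- the value was -2.88 ± 0.80 (edgeR adjusted p = 0.0543) and in Mfn1-/- -2.26 ± 0.78 (adjusted p = 0.240). These became -1.09 ± 0.63 and -0.47 ± 0.63 without that pool. The Mfn1&2-/- difference was called by DESeq2, and by edgeR without Mfn1-/- replicate 1 (-2.88), WT replicate 1 (-3.37) or WT replicate 2 (-3.27).

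**Figure D2:**
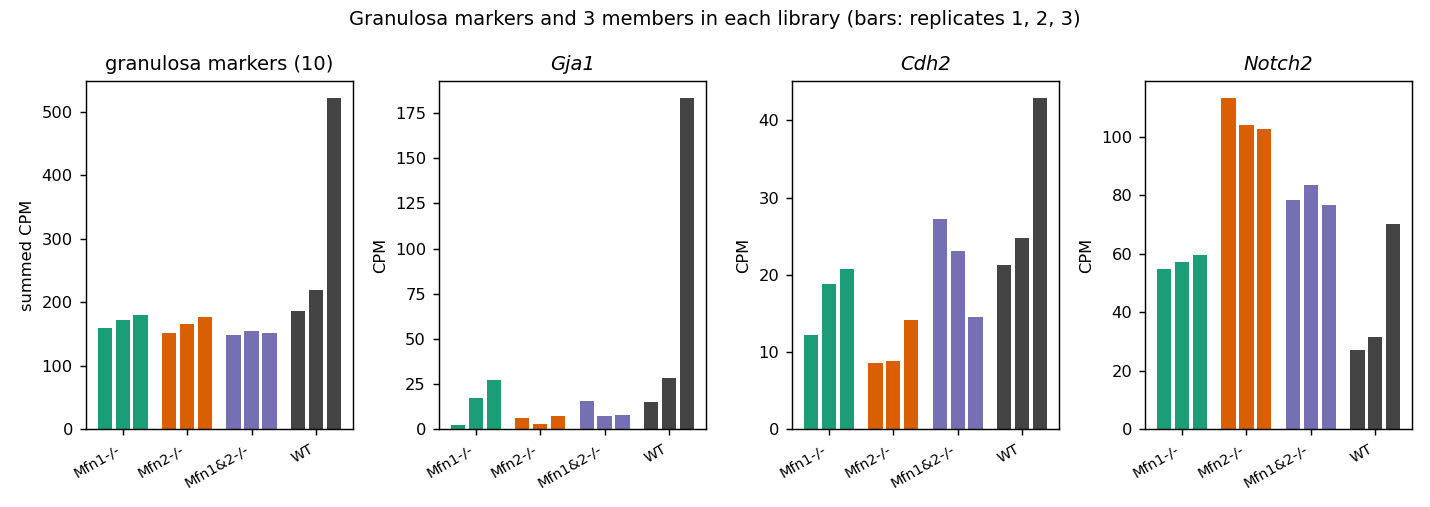
Summed level of 10 granulosa markers and levels of Gja1, Cdh2 and Notch2 (y axes, TMM-scaled CPM from 0) in each library; bars are replicates 1, 2 and 3 of Mfn1-/-, Mfn2-/-, Mfn1&2-/- and WT. WT replicate 3 is highest for the markers (523 CPM), Gja1 (184 CPM) and Cdh2 (42.9 CPM), and is the highest WT pool for Notch2 (70.3 CPM).

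Daam1, a formin that elongates actin filaments (chromosome 12, 71831078 to 71992333, plus strand), fell in Mfn2-/- oocytes and did so under every setting tried. The Mfn1-/- pools held 711, 1013 and 813 CPM, the Mfn2-/- pools 288, 248 and 453 CPM, the Mfn1&2-/- pools 430.3, 806 and 461 CPM and the WT pools 801, 852 and 1068 CPM. Every Mfn2-/- pool lay below every WT pool, in a comparison where 32% of all genes did not overlap. Mfn1&2-/- replicates 1 and 3 stood near the Mfn2-/- range while replicate 2 stood with WT. The log2 fold change was -1.46 ± 0.24 in Mfn2-/-, or 36.3% of WT, with an edgeR adjusted p of 0.00132 that stayed at or below 0.00947 when any 1 library was left out. In Mfn1-/- it was -0.10 ± 0.23 (adjusted p = 0.890), with a 95% interval of -0.56 to 0.36. The Mfn1&2-/- value was -0.68 ± 0.23 (62.4% of WT, edgeR adjusted p = 0.120), and -1.03 without Mfn1&2-/- replicate 2 (adjusted p = 0.0206).

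Myo10, the motor that carries cargo to the tips of filopodia (chromosome 15, 25622525 to 25813673, plus strand), differed more between pools of one genotype than between genotypes. Its level was 288, 484 and 1166 CPM in Mfn1-/-, 1040.4, 235 and 363 CPM in Mfn2-/-, 1327, 138 and 174 CPM in Mfn1&2-/-, and 1238, 571 and 301 CPM in WT. Each group had 1 pool at 1040.4 CPM or more, and all groups overlapped. The within-group SD of 1.28 on the log2 scale was larger than that of 98.2% of all genes, and of 99.7% of the 666 genes within 2-fold of its mean level. No comparison called Myo10, and the log2 fold changes were -0.12 ± 0.76, -0.36 ± 0.76 and -0.37 ± 0.76 in Mfn1-/-, Mfn2-/- and Mfn1&2-/-. With intervals of -1.61 to 1.36, -1.85 to 1.12 and -1.86 to 1.12, a change of 2-fold would not have been detectable. WT replicate 3, the pool with the highest granulosa marker sum, held 301 CPM, 0.472 times the mean of the other libraries.

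Notch2 (chromosome 3, 98013527 to 98150361, plus strand, on the chromosome of Mfn1) was the member that rose. Its level was 54.9, 57.2 and 59.6 CPM in Mfn1-/-, 113, 104 and 103 CPM in Mfn2-/-, 78.5, 83.5 and 76.6 CPM in Mfn1&2-/-, and 27.0, 31.5 and 70.3 CPM in WT. The mutant pools clustered tightly within each genotype, and all 6 pools without Mfn2 lay above all 6 pools with it, as did 2% of all genes in that direction. WT replicate 3 was the exception among WT pools, at 70.3 CPM. The log2 fold change in Mfn2-/- was 1.31 ± 0.25 (248% of WT, edgeR adjusted p = 0.00342). It was 1.87 ± 0.13 without WT replicate 3 (adjusted p = 1.2e-06). The Mfn1&2-/- value was 0.89 ± 0.25 (185% of WT, edgeR adjusted p = 0.0523), which DESeq2, limma-voom and 3 further settings called, as did the fit without WT replicate 3 (1.44 ± 0.13, adjusted p = 1.24e-05). In Mfn1-/- it was 0.42 ± 0.24 (edgeR adjusted p = 0.507), and 0.97 ± 0.13 without WT replicate 3 (adjusted p = 0.00569). WT replicate 3, with the highest granulosa marker sum, raised the WT mean of Notch2 and made each difference smaller. Whether granulosa-cell RNA accounts for its 70.3 CPM was not tested.

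**Figure D3:**
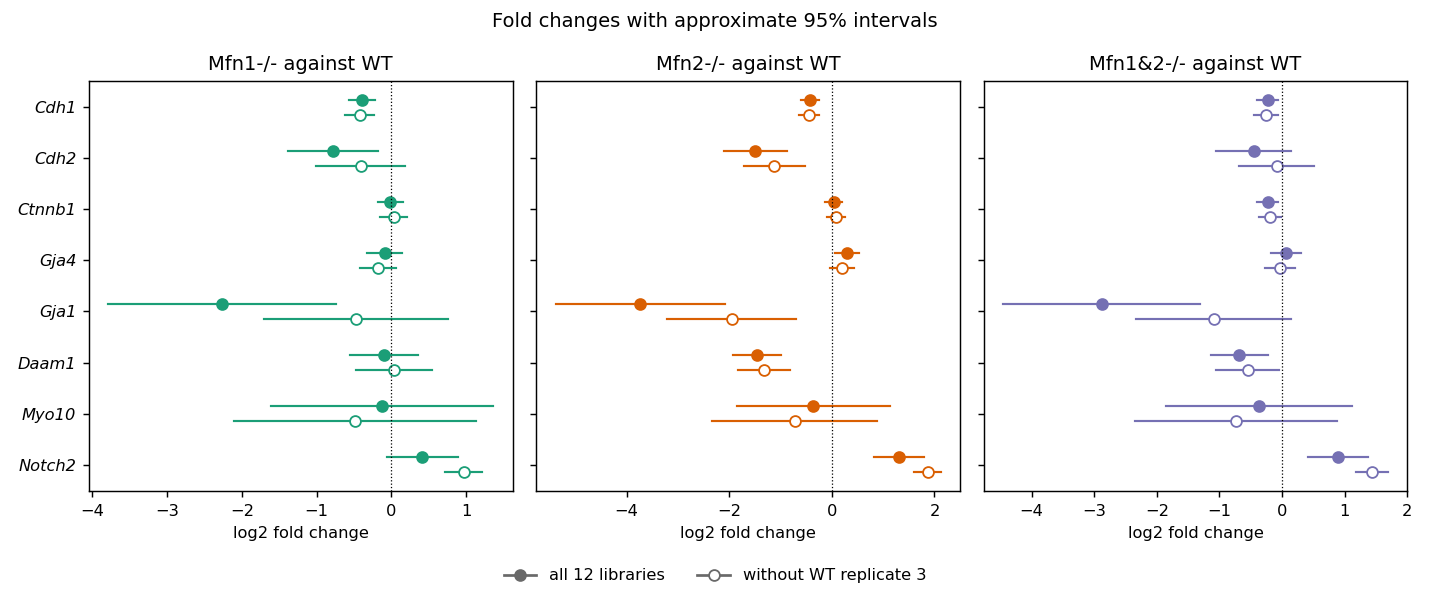
Log2 fold change of each member (x axes, which differ between panels) in Mfn1-/-, Mfn2-/- and Mfn1&2-/- against WT, with approximate 95% intervals; filled circles use all 12 libraries and open circles leave out WT replicate 3. Leaving out that pool moves Gja1 toward 0 and Notch2 away from 0, while Cdh1 and Daam1 stay close to their values.

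Comparisons between the mutants asked whether a second loss altered what the first had left. Against Mfn1-/-, no member was called in Mfn1&2-/- (5.36% of all genes were called; 2 members had an unadjusted p below 0.05, and DESeq2 and limma-voom called none). Against Mfn2-/-, 2 members were higher in Mfn1&2-/-, beside 10.2% of all genes called. Daam1 was higher by 0.78 ± 0.24 (edgeR adjusted p = 0.0462) and Cdh2 by 1.04 ± 0.31 (adjusted p = 0.0456), and neither call was stable. Cdh2 was not called with library size alone or by limma-voom (adjusted p = 0.0508 and 0.0687), nor Daam1 with library size alone, by DESeq2 or in a fit of only the groups compared (adjusted p = 0.0544, 0.0875 and 0.0841). Daam1 lost it without each of 7 libraries (0.43 to 0.78 among these; at the lowest, without Mfn1&2-/- replicate 2, adjusted p = 0.238), and Cdh2 also without 7 (0.84 to 1.04). The libraries were Mfn1-/- replicates 2 and 3, Mfn2-/- replicates 1 and 2, Mfn1&2-/- replicate 2 and WT replicate 2 for both genes, WT replicate 1 for Daam1 and Mfn1&2-/- replicate 1 for Cdh2. Ctnnb1 stood at -0.27 ± 0.08 in the same comparison (edgeR adjusted p = 0.0563), and at -0.33 without Mfn1&2-/- replicate 1 (adjusted p = 0.0376). Library size alone (-0.32, adjusted p = 0.0163), DESeq2 (-0.27, adjusted p = 0.0321) and the filter of at least 5 CPM in 3 libraries (-0.27, adjusted p = 0.0403) called it too. Notch2 was at -0.42 ± 0.24 against Mfn2-/- (edgeR adjusted p = 0.292) and 0.47 ± 0.24 against Mfn1-/- (adjusted p = 0.286). Both Notch2 values were called without WT replicate 3 (adjusted p = 0.0213 and 0.0198). Daam1 was at -0.58 ± 0.23 against Mfn1-/- (edgeR adjusted p = 0.168), and at -0.92 without Mfn1&2-/- replicate 2 (adjusted p = 0.0280).

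Mfn1-/- and Mfn2-/- oocytes differed in 3 members, beside 13.3% of all genes. Daam1 was higher in Mfn1-/- by 1.36 ± 0.24 (edgeR adjusted p = 0.00178), under every setting. Notch2 was lower in Mfn1-/-, at -0.90 ± 0.24 (edgeR adjusted p = 0.0233), and so was Gja4, at -0.38 ± 0.12 (adjusted p = 0.0457). The Gja4 pools of the 2 groups were at 203, 163 and 194 CPM in Mfn1-/- and 247, 222 and 259 CPM in Mfn2-/-. The Notch2 call was lost without any of the 3 Mfn1-/- pools or Mfn2-/- replicate 1 or 3 (-0.93 to -0.85, adjusted p up to 0.0744). The Gja4 call was lost without any of the 3 Mfn1-/- pools, Mfn2-/- replicate 1 or 3, Mfn1&2-/- replicate 3 or WT replicate 1 (-0.43 to -0.29, adjusted p up to 0.195), and with RLE scaling or library size alone (-0.37 and -0.36, adjusted p = 0.0512 and 0.0546).

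Averaged over both Mfn1 states, loss of Mfn2 went with lower Daam1 (-1.02 ± 0.17, edgeR adjusted p = 0.001), lower Gja1 (-2.18 ± 0.57, adjusted p = 0.0199) and higher Notch2 (0.89 ± 0.17, adjusted p = 0.00337), beside 12.4% of all genes called. The Daam1 and Notch2 calls held in every setting and without each library. The Gja1 call was lost without WT replicate 3 (-1.28, adjusted p = 0.0753), Mfn1-/- replicate 3 (-1.86, adjusted p = 0.0539) or Mfn1&2-/- replicate 3 (-2.09, adjusted p = 0.0502), and by limma-voom (-1.59, adjusted p = 0.201). Averaged over both Mfn2 states, loss of Mfn1 called no member, beside 4.4% of all genes; Ctnnb1, at -0.14 ± 0.06, was the only one with an unadjusted p below 0.05, and DESeq2 and limma-voom called none.

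The interaction of the 2 losses, the Mfn1&2-/- value less the sum of both single differences from WT, was called for both cadherins, beside 4.13% of all genes. For Cdh1 it was 0.59 ± 0.12 (edgeR adjusted p = 0.0191): the single mutants stood at 76.0% and 74.5% of WT, and the double mutants at 85.2%. For Cdh2 it was 1.82 ± 0.44 (adjusted p = 0.0342), with means of 17.3, 10.5 and 21.6 CPM in Mfn1-/-, Mfn2-/- and Mfn1&2-/- against 29.6 CPM in WT. Without Mfn1-/- replicate 1 or Mfn2-/- replicate 2 the Cdh1 value was 0.54 and not called (adjusted p = 0.0559 and 0.055). The Cdh2 call was lost without any of 7 libraries: Mfn1-/- replicates 1 and 2, Mfn2-/- replicates 1 and 2, Mfn1&2-/- replicates 1 and 2, and WT replicate 3 (1.45 to 1.88 among these). For Notch2 it was -0.84 ± 0.34 (edgeR adjusted p = 0.174), and -1.39 ± 0.17 without WT replicate 3 (adjusted p = 0.000739).

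Levels were set side by side between genes as CPM per kb of exon. In WT oocytes, Cdh1 (121 ± 4.79 CPM per kb), Gja4 (118 ± 16.0), Daam1 (112 ± 17.5), Myo10 (69.5 ± 47.7) and Ctnnb1 (50.0 ± 2.67) formed an upper group, in which the pools of neighbouring genes overlapped. Gja1 (7.39 ± 9.12 CPM per kb), Notch2 (3.98 ± 2.21) and Cdh2 (3.67 ± 1.44) formed a lower group whose WT pools also overlapped. The same 5 genes led in every mutant group. In Mfn2-/- the order was Gja4 (144 ± 11.3 CPM per kb), Cdh1 (90.3 ± 5.07), Myo10 (54.0 ± 42.8), Ctnnb1 (51.3 ± 2.23), Daam1 (40.7 ± 13.4), Notch2 (9.89 ± 0.541), Cdh2 (1.3 ± 0.389) and Gja1 (0.550 ± 0.237), and Gja4 stood above Cdh1 without overlap, as it also did in Mfn1&2-/-. There the order was Gja4 (123 ± 12.8 CPM per kb), Cdh1 (103 ± 6.63), Daam1 (69.9 ± 25.8), Myo10 (54.0 ± 66.8), Ctnnb1 (42.7 ± 3.23), Notch2 (7.38 ± 0.331), Cdh2 (2.68 ± 0.796) and Gja1 (1.01 ± 0.443). In Mfn1-/- it was Gja4 (111 ± 12.5 CPM per kb), Daam1 (104 ± 19.0), Cdh1 (92.1 ± 8.0), Myo10 (63.8 ± 45.6), Ctnnb1 (49.6 ± 1.31), Notch2 (5.31 ± 0.219), Cdh2 (2.14 ± 0.555) and Gja1 (1.54 ± 1.21). Notch2 stood seventh in WT and led the lower group in each mutant.

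**Figure D4:**
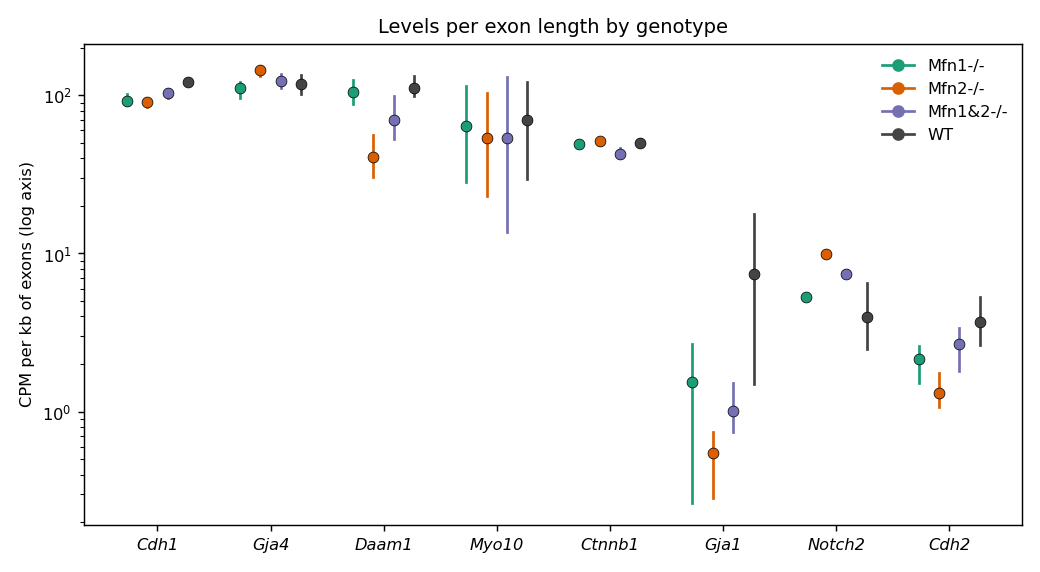
Level of each member per kb of exon (y axis, TMM-scaled CPM per kb, log axis) in Mfn1-/-, Mfn2-/-, Mfn1&2-/- and WT; points are group means and lines run from the lowest to the highest of 3 pools. Cdh1, Gja4, Daam1, Myo10 and Ctnnb1 lie above 10 CPM per kb in every pool, and Notch2 and Cdh2 below 11.

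The other genes of each pathway were described from lists. Of 20 further cadherin and catenin genes in the table, 4 were lower and 0 higher in Mfn2-/- than in WT. That was 20.0% of the list, beside 11.4% of all genes, and the median was -0.09, beside 0.01 for all genes. Mllt4 (afadin), which ties nectins to actin, had the smallest adjusted p of them. It was at 462, 404 and 402 CPM in Mfn2-/-, against 665, 655 and 717 CPM in WT (-0.68 ± 0.11, edgeR adjusted p = 0.000951). Apc and Csnk1a1, both of the complex that degrades β-catenin, were at 414 ± 44.6 and 250.4 ± 24.7 CPM in Mfn2-/-, against 614 ± 58.4 and 331 ± 22.3 CPM in WT (-0.57 ± 0.12 and -0.40 ± 0.09, adjusted p = 0.00807 and 0.0125). Pvrl1 (nectin 1) was low throughout, with 3.48 ± 0.548 CPM in Mfn2-/- against 11.1 ± 8.62 CPM in WT (-1.67 ± 0.45, adjusted p = 0.0249), and WT replicate 3 held 21.0 CPM of it. Without that pool, Pvrl1 stood at -0.81 (adjusted p = 0.200) and Csnk1a1 at -0.34 (adjusted p = 0.0553), so 2 of the 4 were called. Of all genes, 6.41% were called without it. Csnk1a1 also lost its call without Mfn2-/- replicate 2 (-0.32), and Pvrl1 without any 1 Mfn2-/- pool (-1.76 to -1.55) and by limma-voom (-1.42, adjusted p = 0.0794). In Mfn1-/- and Mfn1&2-/- edgeR called none of the 20, with 3 and 4 at an unadjusted p below 0.05 and none by DESeq2 or limma-voom. Their medians were -0.03 and 0.01.

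Among 14 further connexin, pannexin and junction scaffold genes, 2 were lower in Mfn2-/- and 0 higher (14.3% of the list, beside 11.4% of all genes, median -0.09). Cgn (cingulin), a scaffold of tight junctions, had 77.1, 96.3 and 98.7 CPM in Mfn2-/-, against 192, 193 and 147 CPM in WT (-0.97 ± 0.13, edgeR adjusted p = 0.000248, a call kept in every setting and without each library). Gjc1, connexin 45, had 1.92 ± 0.427 CPM in Mfn2-/- against 7.38 ± 5.56 CPM in WT (-1.95 ± 0.49, adjusted p = 0.0198), with 13.8 CPM in WT replicate 3. It was not called without WT replicate 3 (-1.13, adjusted p = 0.139) or without Mfn2-/- replicate 1 or 3 (-1.86 and -1.87), nor by limma-voom (-1.72, adjusted p = 0.0973). Ocln (occludin), a membrane protein of tight junctions, was the gene higher in Mfn1-/-, with 39.3, 37.6 and 33.3 CPM against 19.7, 17.5 and 17.2 CPM in WT. Its log2 fold change of 1.02 ± 0.17 (edgeR adjusted p = 0.0192) was not called without WT replicate 2 or 3 or Mfn1-/- replicate 1 or 2 (0.98 to 1.00 among these). None of the 14 was called by edgeR in Mfn1&2-/-, with 3 at an unadjusted p below 0.05, 1 by DESeq2 and none by limma-voom. The medians were -0.01 in Mfn1-/- and 0.06 in Mfn1&2-/-.

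Of 35 further actin regulators, 5 were lower and 1 higher in Mfn2-/- (17.1% of the list, beside 11.4% of all genes; median -0.12). Without WT replicate 3, 2 were lower and 1 higher (median -0.05), beside 6.41% of all genes called. Fmn2, a formin that builds the actin network of the oocyte cytoplasm, had 392, 399.7 and 342 CPM in Mfn2-/-, against 565, 620.0 and 554 CPM in WT (-0.62 ± 0.10, edgeR adjusted p = 0.00127). Rhoa, a GTPase that switches formins on, had 82.5 ± 4.24 CPM in Mfn2-/- against 119.5 ± 12.2 CPM in WT (-0.53 ± 0.12, adjusted p = 0.00912). Both calls held in every setting and without each library. Fscn1 (fascin), which bundles the actin of projections, had only 2.44 ± 0.826 CPM in Mfn2-/- against 7.13 ± 2.04 CPM in WT (-1.54 ± 0.37, adjusted p = 0.0151), and Actg1, cytoplasmic γ-actin, 70.2 ± 6.73 against 95.9 ± 11.6 CPM (-0.45 ± 0.13, adjusted p = 0.0295). Without WT replicate 3 neither was called (-1.29 and -0.41), nor was Fscn1 without Mfn2-/- replicate 1 or 2 (-1.34 and -1.49) or Actg1 without Mfn2-/- replicate 1 or 3 or WT replicate 2 (-0.46 to -0.39) or with library size alone (-0.40, adjusted p = 0.0512). In Mfn1-/- the formin Fmnl3 alone was lower, with 734 ± 27.7 CPM against 1019 ± 48.0 CPM in WT (-0.47 ± 0.07, edgeR adjusted p = 0.0159). That call was lost without Mfn1-/- replicate 1 or 2 or WT replicate 2 (-0.46 to -0.44), and in a fit of only the groups compared (-0.47, adjusted p = 0.0759). None of the 35 was called by edgeR in Mfn1&2-/-, with 7 at an unadjusted p below 0.05, 2 by DESeq2 and none by limma-voom. The medians were -0.09 in Mfn1-/- and -0.03 in Mfn1&2-/-.

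Of 30 further genes of the Notch pathway, 2 were higher and 1 lower in Mfn2-/- (median -0.01). Aph1b, a subunit of the γ-secretase that releases the Notch intracellular domain, had 28.0 ± 7.13 CPM in Mfn2-/- against 14.4 ± 3.38 CPM in WT (0.96 ± 0.27, edgeR adjusted p = 0.0316). Spen, a corepressor that binds RBPJ, had 55.6 ± 6.44 CPM in Mfn2-/- against 86.0 ± 11.6 CPM in WT (-0.63 ± 0.14, adjusted p = 0.00833). In Mfn1&2-/- against WT, 1 of the 30 was higher and 1 lower (6.67% of the list, beside 4.21% of all genes, median 0.04). The lower gene was Rbpj, the DNA-binding factor of the pathway. It had 52.4, 55.0 and 49.7 CPM in Mfn1&2-/-, against 86.7, 79.7 and 85.5 CPM in WT (-0.68 ± 0.11, edgeR adjusted p = 0.00175). The Spen and Rbpj calls held in every setting and without each library. In Mfn2-/-, Aph1b was not called without WT replicate 2 or 3 or Mfn2-/- replicate 2 or 3 (0.77 to 1.04 among these). The ligand Jag1, named here after its values were seen because it pairs with Notch2, was called in none of the 3 mutant groups against WT (-0.14 ± 0.09 in Mfn1-/-, 0.16 ± 0.09 in Mfn2-/- and 0.04 ± 0.09 in Mfn1&2-/-). Between Mfn1-/- and Mfn2-/-, edgeR did call Jag1. It was 1 of 5 called there of the 30 genes, beside 13.3% of all genes. In Mfn1-/- against WT, edgeR called none of the 30, with 4 at an unadjusted p below 0.05 and none by DESeq2 or limma-voom. Without WT replicate 3, 0 of the 30 were higher and 2 lower in Mfn2-/-, against 2 higher and 1 lower with it. Of all genes, 6.41% were called without that pool, against 11.4% with it.

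**Figure D5:**
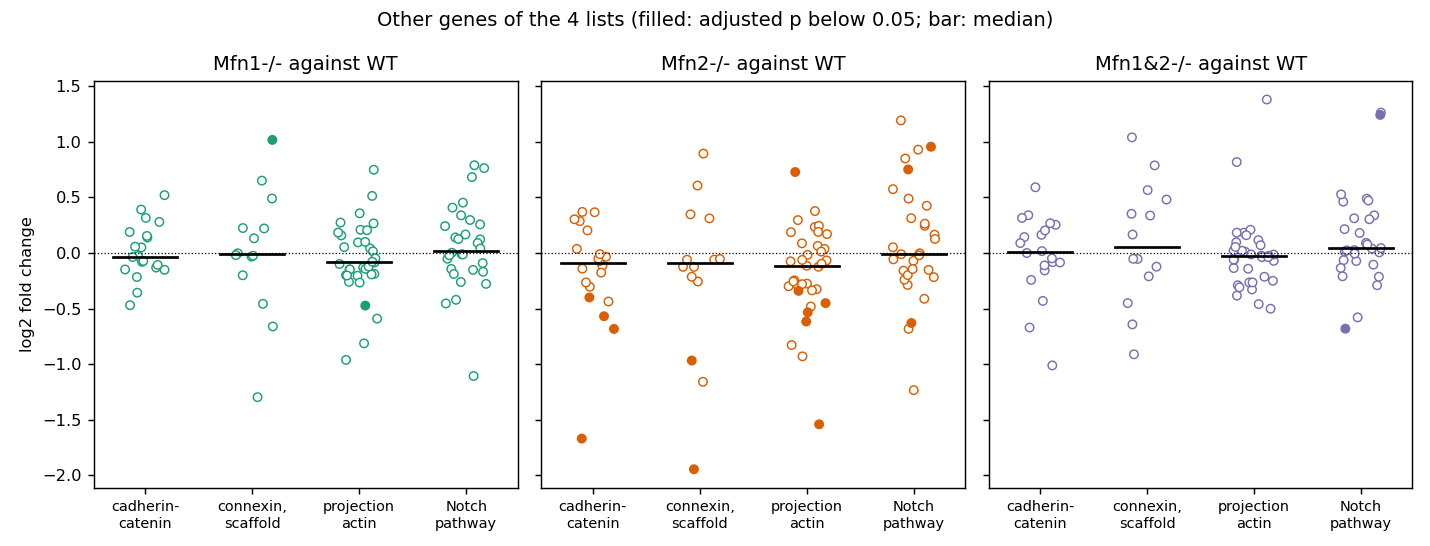
Log2 fold change of every further gene of the 4 lists (y axis) in Mfn1-/-, Mfn2-/- and Mfn1&2-/- against WT; each point is a gene, filled where edgeR's adjusted p is below 0.05, and bars are list medians. Most filled points are in Mfn2-/-, and most of those lie below 0.

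For each member called against WT, the 2 genes with the closest profile over the 12 libraries were found among 9167 genes with a mean of at least 5 CPM, as the root-mean-square (RMS) difference of centred log2 CPM. For Gja1 they were Inha, the inhibin α subunit of granulosa cells (RMS 0.40), and Tenm4, a teneurin of the cell surface (0.47), beside a median of 1.58 for all genes. Inha had 77.9 CPM and Tenm4 162 CPM in WT replicate 3, and at most 19.8 and 36.6 CPM elsewhere. For Daam1 they were Gpatch11 (0.28) and Nudt9, an ADP-ribose hydrolase (0.31), beside a median of 0.72. For Cdh2 they were Mapk1ip1l (0.27) and again Gpatch11 (0.30), beside 0.70. Gpatch11 had 14.8, 10.5 and 16.7 CPM in Mfn2-/-, against 28.4, 34.9 and 51.9 CPM in WT. For Notch2 they were Mapre3, a microtubule end-binding protein (0.23), and A230046K03Rik (0.28), beside 0.67. Mapre3 had 10.6, 9.80 and 9.10 CPM in Mfn2-/- and, as for Notch2, its highest WT value, 7.02 CPM, in replicate 3. Cdh1 lay closest to Ubac1 (0.08) and Scaf4 (0.08), beside 0.32. Ubac1 had 47.8, 44.3 and 44.5 CPM in Mfn2-/-, against 58.4, 59.1 and 57.3 CPM in WT, and was not called there (-0.36, edgeR adjusted p = 0.0858). All these genes were picked for closeness, so a small RMS and shared high pools follow from the choice.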

How the data were processed

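Total RNA of 12 pools of oocytes was sequenced as 100 bp read pairs from a stranded, ribosome-depleted kit, per the labels' protocols. Read quality was checked with FastQC 0.11.7 and reads were aligned with STAR 2.7.0a to mm10, with edgeR also named, per the submitters' processing notes. The sources used here do not give the counting tool, its annotation or its strand setting. The authors deposited a table of raw counts per gene and a signal table of scaled CPM. The deposited signal equalled TMM-scaled CPM recomputed from the counts (relative tolerance 1e-09) and served as a check only. Total counts per library make 3 counts, taken as the detection floor, a level of 0.188 to 0.253 CPM.

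Groups came from the labels; 1 pool's misspelled genotype was placed by its description. All 12 libraries were fitted together with edgeR 4.0.16 in R 4.3.3 (TMM, 1 mean per group, 8 residual degrees of freedom, quasi-likelihood test), and p-values of 9 comparisons were BH-adjusted over 11385 genes each. Standard errors are approximate, from the log2 fold change and its F statistic, and 95% intervals are built on them. Alternatives were RLE scaling, library size alone, DESeq2 1.42.0, limma-voom (limma 3.58.1), other filters, a replicate block, fits of only the groups compared, and leaving out each library. The filter of the main fit removed none of the 11385 genes, so the setting without a filter repeated that fit and could change no call. The fit was tested on simulated data. Further genes were named from 4 pathway lists by adjusted p, up to 4 called genes per list and comparison; promoter windows and exon lengths came from RefSeq and GENCODE. The members and lists were chosen with earlier results of these data known. Some genes that these rules pick are not reported here.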

Additional observations from a re-analysis of the deposited data

Results flagged for a closer look

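The interaction of the 2 losses was called for both cadherins, meaning that the effect of losing Mfn2 differed between oocytes without and with Mfn1 by a test of the difference itself. It was 0.59 for Cdh1 (edgeR's quasi-likelihood test, adjusted p = 0.0191) and 1.82 for Cdh2 (adjusted p = 0.0342), both on the log2 scale. Each call was lost when certain single libraries were left out, as given with the results.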

How the results depend on the processing

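Of the members, 4 to 5 were called in Mfn2-/- against WT under every alternative and with each library left out. Counts of called members elsewhere moved as follows. In Mfn1-/- against WT (0 called), DESeq2 called 1 and leaving out a library gave 0 to 1. In Mfn1&2-/- against WT (0), library size alone, limma-voom, the filter of at least 5 CPM in 3 libraries and the replicate block called 1 each, DESeq2 2, and leaving out a library 0 to 1. In Mfn1&2-/- against Mfn1-/- (0), library size alone and only the groups compared gave 1 each, and leaving out a library 0 to 1. In Mfn1&2-/- against Mfn2-/- (2), library size alone and limma-voom gave 1 each, the filter of at least 5 CPM in 3 libraries 3, and leaving out a library 0 to 3. In Mfn1-/- against Mfn2-/- (3), RLE scaling, library size alone and the replicate block gave 2 each and leaving out a library 1 to 3, and for the interaction (2) 0 to 2. For loss of Mfn2 averaged over Mfn1 states (3), DESeq2 gave 4 and limma-voom and the replicate block 2 each. The cause of these moves was not tested. Uncalled values changed sign for Ctnnb1 in Mfn1-/- by library size alone (0.046) and for Myo10 in Mfn1-/- with the block (0.31). Leaving out a library turned them for Ctnnb1 (-0.048 to 0.029), Gja4 (-0.18 to 0.017), Daam1 (-0.25 to 0.032) and Myo10 (-0.87 to 0.57) in Mfn1-/-, Myo10 in Mfn2-/- (-1.23 to 0.33), and Gja4 (-0.027 to 0.17) and Myo10 (-2.17 to 0.32) in Mfn1&2-/-. Library size alone moved the median of all genes in the interaction to -0.12, against -0.01.

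Over all genes, counts of called genes differed most by DESeq2: 224 against 26 by edgeR in Mfn1-/- against WT, 834 against 479 in Mfn1&2-/- against WT, 1044 against 610 in Mfn1&2-/- against Mfn1-/-, 903 against 470 for the interaction (276 with the replicate block) and 875 against 501 for loss of Mfn1 averaged over Mfn2 states. In Mfn1-/- against WT, only the groups compared gave 13. Leaving out a library gave 3 to 51 genes in Mfn1-/-, 708 to 1429 in Mfn2-/- and 282 to 550 in Mfn1&2-/- against WT, and 160 to 464 for the interaction. Same-numbered libraries correlated above 0.1 in 4 of 18 pairs, and 7 of 12 libraries correlated best with one of their own number, a hint from the data and not the design. The numbers were therefore not taken to pair the pools. The pool descriptions carry other numbers, some of them shared between genotypes, and whether those mark a shared day or litter was not examined. With the replicate block the Gja1 value averaged over Mfn1 states was -1.75 (adjusted p = 0.0538) and the Gja4 value in Mfn1-/- against Mfn2-/- -0.38 (adjusted p = 0.0591), and Notch2 in Mfn1&2-/- against WT was called (0.95, adjusted p = 0.0412). It changed no other call of a gene named here, apart from Actr3 in Mfn2-/- against WT (adjusted p = 0.0613).

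With 3 pools per group, a gene that varies like Myo10 allows no statement on changes of the size seen for Cdh1. For Cdh2, Gja1, Pvrl1, Gjc1 and Fscn1, as for Notch2, WT replicate 3 was the highest WT pool and raised the WT mean. Whether the level of a gene plays a part in this was not tested.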

Other observations

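Myo10 was not called anywhere, and its closest profile was looked up after its values were seen. It was that of Haus8, a subunit of the augmin complex of spindle microtubules (RMS difference of centred log2 CPM 0.35), beside a median of 1.13 for all genes. Haus8 had 27.5, 39.0 and 84.1 CPM in Mfn1-/-, 64.8, 29.9 and 38.7 CPM in Mfn2-/-, 76.2, 13.7 and 19.7 CPM in Mfn1&2-/-, and 87.0, 50.5 and 21.0 CPM in WT. Its highest pool in each genotype was also the highest for Myo10, which is no separate result, because Haus8 was picked for its closeness to Myo10.

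Among the actin regulators, Actr3, a subunit of the Arp2/3 complex, was the fifth gene lower in Mfn2-/- than in WT (-0.34 ± 0.10, edgeR adjusted p = 0.0337), and Pfn2, a profilin, the gene that was higher (0.73 ± 0.22, adjusted p = 0.0409); both are named after their values were seen. Actr3 was not called without any 1 of the Mfn2-/- or WT pools (-0.39 to -0.28 among these, and -0.29 with an adjusted p of 0.121 without WT replicate 3). Pfn2 was not called in a fit of only the groups compared, nor without Mfn1-/- replicate 2, any 1 Mfn2-/- pool, Mfn1&2-/- replicate 2 or WT replicate 1 or 2 (0.53 to 0.77 among these). Of the 12 oocyte markers, Zp1, Bmp15 and Oosp1 were higher in Mfn2-/- than in WT. Without WT replicate 3, 2 of the 12 were higher, beside 6.41% of all genes called.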
